A study of Mus musculus with 12 samples.

Results

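The genes described here encode the proteins of the cytosolic ribosome. They were taken by symbol, as Rpl or Rps followed by a number, or Rpsa, Rplp0, Rplp1 and Rplp2, leaving out the Rps6k kinases and pseudogene symbols, with at least 1 CPM (read counts set relative to library size) in at least 3 libraries. The rule found 84 genes among the 23937 of the table, and all 84 were among the 22352 genes that passed the same filter on low values. Of these, 31 encode proteins of the small (40S) subunit, 46 encode proteins of the large (60S) subunit, and 7 are like-named paralogues (Rpl3l, Rpl7l1, Rpl10l, Rpl22l1, Rpl39l, Rps4l and Rps27l).

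RNA was made from flow-sorted CD8 T cells, the cytotoxic class of T cell. The 12 libraries form 4 groups of 3: blood of naive mice, brain of naive mice, and brain 3 and 30 days after stroke. The labels name neither strain, genotype, age nor sex, nor how the stroke was made, and naive mice are the only reference groups. The protocol text speaks of spleens, but each sample's label names blood or brain, and the labels were followed here. Whether the 3 samples of a group are 3 mice is not stated. The p-values below therefore reflect only how much these samples varied, a variation that may be technical.

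A ribosome holds each of its proteins about once, and mammalian cells make them in matched amounts. Most ribosomal protein mRNAs begin with a C followed by a run of pyrimidines, the 5' terminal oligopyrimidine (TOP) motif, through which the mTOR kinase and the RNA-binding protein Larp1 set their translation. A resting T cell holds few ribosomes, and activation brings growth, Myc expression and the making of new ones. The paralogues can replace the main protein in some ribosomes or act outside the ribosome, and Rps27l is known as a target of the p53 tumour suppressor.

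The sequence around the transcription start is where the TOP motif lies, and it is shown for the genes on which the results below turn. Each line gives 30 bases of RefSeq sequence (GRCm38.p6) on the gene's own strand, with the annotated start after the first 15 bases. Capitals mark a C followed by at least 5 further C or T bases, searched within 10 bases on either side of the start, so a run that reaches farther is in capitals only in part.
Rps27: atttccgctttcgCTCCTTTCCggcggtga
Rps27l: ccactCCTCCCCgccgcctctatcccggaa
Rpl22l1: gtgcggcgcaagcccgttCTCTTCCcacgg
Rps6: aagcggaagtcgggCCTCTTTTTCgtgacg
Rpl35: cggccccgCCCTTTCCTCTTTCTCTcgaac
Rps3: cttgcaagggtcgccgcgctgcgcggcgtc
Rpl37a: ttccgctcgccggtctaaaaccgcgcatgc
Rpl4: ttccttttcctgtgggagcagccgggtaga
Rpl7l1: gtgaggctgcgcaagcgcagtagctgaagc
These windows lie at chr3:90213634-90213663 on the minus strand for Rps27, chr9:66946071-66946100 on the plus strand for Rps27l (the upstream of its 2 annotated starts), chr3:28805493-28805522 on the plus strand for Rpl22l1, chr4:86857353-86857382 on the minus strand for Rps6 and chr2:39005117-39005146 on the minus strand for Rpl35. Those without a run lie at chr7:99483695-99483724 on the minus strand for Rps3, chr1:72711245-72711274 on the plus strand for Rpl37a, chr9:64173372-64173401 on the plus strand for Rpl4 and chr17:46782642-46782671 on the minus strand for Rpl7l1. Of 63 members with a RefSeq start window, 31 (49.2%) held such a run on their own strand, against 17.7% of 17492 protein-coding genes and 20.6% of 68 mitochondrial ribosomal protein genes. On the opposite strand the shares were 7.94% of members and 19.4% of all protein-coding genes. The share was 47.8% of 23 small subunit genes and 50.0% of 34 large subunit genes. A gene with several annotated starts was counted where any of them held a run. A match describes the annotated letters only, and annotated starts can differ by some bases from the starts used in these cells. The pyrimidine run of Rpl4 before its start reaches into the bases searched, but no C within them is followed by 5 further pyrimidines.

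Before any comparison, the libraries stood apart in depth and in background. They held 1104490 to 21014171 reads. Background was read from 1490 chemosensory receptor genes (olfactory, vomeronasal, taste), which have no known use in T cells. In unscaled CPM, the summed background was 165 to 884 in 5 libraries, the 3 of naive brain and replicate 1 of day 3 and of day 30. It was 2016 to 7884 in the other 7, among them all 3 of blood. The 5 low background libraries were also the deeper ones (3469973 reads or more, against 2141262 or fewer). Marker genes of T cells took 0.453% to 0.621% of reads in blood, 0.863% to 1.05% in naive brain, 0.104% to 0.315% at day 3 and 0.620% to 1.51% at day 30, with all 17 markers detected in every group. The 18 microglia markers took 0.0562% to 0.101% in blood, 2.23% to 5.27% in naive brain, 0.648% to 2.62% at day 3 and 0.532% to 1.24% at day 30, and the 11 monocyte and macrophage markers took 0.358% to 1.12% at day 3 against 0.320% to 0.428% in naive brain. The 11 erythroid and platelet markers took 0.735%, 0.0305% and 0.443% in blood replicates 1 to 3, with T cell markers at 0.619% in blood replicate 1. They took 0.0217% to 0.243% at day 3, 0.00319% to 0.0114% in naive brain and 0.00235% to 0.00462% at day 30. The part of these other cell types in the results below was not tested, and in bulk samples fewer cells of a type cannot be told apart from less RNA per cell.

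Ribosomal protein genes took between 5.30% and 11.6% of all gene reads. The share was 11.6%, 7.63% and 11.4% in naive blood replicates 1 to 3. Naive brain libraries gave 10.2%, 6.72% and 6.58%. At day 3 it was 6.41%, 5.30% and 6.70%, and at day 30 it was 7.31%, 7.54% and 9.53%. Every day 3 library lay below every blood library, and the day 3 range overlapped that of naive brain. Group means were 10.2% ± 2.23 (blood), 7.84% ± 2.07 (naive brain), 6.14% ± 0.737 (day 3) and 8.13% ± 1.22 (day 30; SD, n = 3). With 3 samples against 3, a two-sided exact permutation test cannot give a p below 0.10. No other test was made of these shares. The widest 95% Wilson interval for a single library came from blood replicate 1 (11.5% to 11.6%), so counting error was small beside the spread between replicates.

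**Figure D1:**
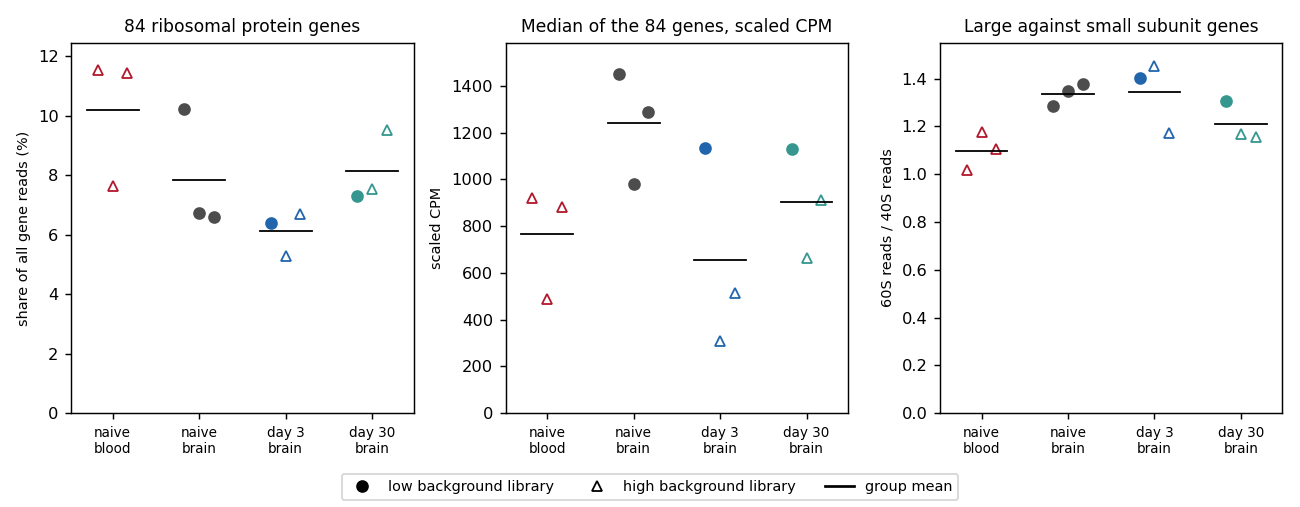
Ribosomal protein genes in each of the 12 libraries: left, their share of all gene reads (%), centre, the median of the 84 genes in the authors' scaled CPM, right, reads on large subunit genes divided by reads on small subunit genes. Each point is a library (filled circle, low background; open triangle, high background) and each line a group mean; naive blood reaches the highest shares at left (11.6%) but not the highest scaled CPM at centre, where naive brain stands at 980 to 1452.

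The authors' scaled CPM ordered the groups differently from the share of reads. The median member measured 921, 489 and 883 scaled CPM in blood. It reached 1452, 980 and 1287 in naive brain. The day 3 libraries stood at 1134, 310 and 516, and those of day 30 at 1131, 663 and 913. Naive brain had the highest mean on this scale. Scaled CPM was 1.34 to 2.09 times the unscaled value in the 5 low background libraries and 0.527 to 0.880 times in the other 7. Day 3 replicate 2 was the lowest library, and day 3 replicate 1 lay within the range of naive brain. Both scales are given below, since the direction for the whole family differed between them in several comparisons.

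The balance of the subunits was measured within each library, where library scaling cancels. Reads on large subunit genes were 1.02, 1.17 and 1.10 times those on small subunit genes in blood and 1.28, 1.35 and 1.38 times in naive brain. The ratio was 1.40, 1.45 and 1.17 at day 3 and 1.31, 1.17 and 1.16 at day 30. All 3 naive brain libraries exceeded all 3 blood libraries, while the groups after stroke overlapped naive brain or blood. The ratio was 1.28 to 1.40 in the 5 low background libraries and ranged from 1.02 to 1.45 in the others, a range that contains it. Day 3 replicate 2, with the highest background, had the highest ratio, and the other 6 high background libraries lay below all 5 of low background. The part of background in the ratio was not tested.

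The 77 members outside the paralogues were abundant. Their mean over 12 libraries ran from 260 to 3947 scaled CPM, and the lowest value of any of them in any library was 32.8. Across the 12 libraries the log2 level of the typical member correlated with the family median at r = 0.92, and 46 of 77 exceeded 0.9. These correlations include differences in scaling between libraries, which all genes share, and the family median includes the member itself. The same correlation was not computed for genes outside the family, so the values describe the members only. The lowest was that of Rpl31, a large subunit protein, at r = 0.35. The 5 members with the highest mean scaled CPM took 10.7% to 20.4% of the reads on all 84.

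Day 3 brain was first set against naive brain, to ask how CD8 T cells in brain differ early after stroke from those of uninjured brain. No member passed the threshold in limma (adjusted p of at most 0.05), against 0.716% of all genes, and 32 members had an unadjusted p under 0.05, against 12.8% of all genes. edgeR and DESeq2 also called 0 (0.0761% and 4.36% of all genes). The median difference of the members was -1.20 on the log2(CPM + 1) scale, against 0.50 over all tested genes, and 78 of 84 had a negative difference. Both subunits took like values, with medians of -1.25 (small) and -1.23 (large). For 34 members all 3 day 3 libraries lay below all 3 naive brain libraries in scaled CPM, against 8.5% of all genes. In unscaled CPM, the number was 20, against 4.11% of all genes.

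Among small subunit genes at day 3, Rps3, a protein at the mRNA entry of the ribosome, had the most negative difference. It measured 1837, 241 and 453 scaled CPM at day 3 and 2300.0, 2424 and 2896 in naive brain. The groups did not overlap, yet replicate 1 stood 4 times or more above its 2 partners. The difference was -2.11 ± 0.67 (SE; limma adjusted p = 0.136). Rps6, the target of the S6 kinases, measured 485, 86.9 and 133 scaled CPM against 547, 687 and 764, a difference of -1.88. Among large subunit genes the most negative were Rpl6 (-1.98) and Rpl32 (-1.98). Rpl5 and Rpl11, which carry 5S rRNA and can bind Mdm2, differed by -0.73 and -1.25.

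Day 3 replicate 1, of low background, lay nearer to naive brain than replicates 2 and 3, both of high background. Without day 3 replicate 1, 34 members were called lower and 0 higher, against 2.73% of all genes called lower. With limma's library weights, 39 were called lower, against 6.19% of all genes. Within the low background libraries, day 3 replicate 1 against the 3 of naive brain gave a median of -0.24 over members and -0.11 over all genes, with no replicate check. In unscaled CPM the median difference was -0.22, against 1.13 over all genes. With quantile normalization it was 0.055, of the opposite sign, against 0.02 over all genes.

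Of the other lists of translation genes, 4 had these median differences at day 3: -1.29 over 38 initiation factors, -1.38 over 14 elongation and release factors, -1.35 over 49 ribosome biogenesis genes and -1.21 over 77 mitochondrial ribosomal proteins. In unscaled CPM they were -0.31, -0.41, -0.36 and -0.25. The 19 other TOP genes, known for the motif but outside the symbol rule, had a median of -1.20 (-0.21 unscaled). Lists of regulators differed: the median of 23 translation regulators was -0.68 but 0.29 in unscaled CPM, and that of 10 Rps6k kinase genes was 0.68 and 1.43. In these 4 lists 1 gene passed the threshold, against 0.716% of all genes called in either direction. It was Eif3g, a subunit of initiation factor 3, which fell by 3.26 ± 0.80 (SE; limma adjusted p = 0.028). Among the translation regulators Myc, the transcription factor that drives ribosome biogenesis, fell by 3.55 ± 0.85 (limma adjusted p = 0.0237). The 17 T cell markers had a median difference of -2.96 in the same comparison. Of these markers 14 were called lower, against 0.716% of all genes called in either direction.

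Day 30 brain was set against naive brain in the same way. No member was called in limma, edgeR or DESeq2 (0.224%, 0.0268% and 1.01% of all genes), and 2 had an unadjusted p under 0.05, against 8.9% of all genes. The median difference from naive brain was -0.55, against 0.19 over all genes, and 16 members lay below naive brain in all libraries, against 6.03% of all genes. Rpl22l1 and Rps27l were the 2 members with all day 30 libraries above all naive brain libraries, against 7.22% of all genes. The family median was of the opposite sign in unscaled CPM (0.13, against 0.57 over all genes), with quantile normalization (0.30, against 0.06) and with a term for library background (0.14). Rpl37a (-1.39) and Rpl29 (-1.36) had the most negative differences among the abundant members. Rpl37a measured 3008, 658 and 887 scaled CPM at day 30, and its first library lay within the range of naive brain. Rpl29 measured 842, 309 and 286, with the same overlap.

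Day 30 was also set against day 3, to ask how the cells present long after stroke differ from those present early. No member was called in limma, edgeR or DESeq2 (0.255%, 0.157% and 0.765% of all genes), and 5 of 84 had an unadjusted p under 0.05, against 5.68% of all genes. The median difference was 0.64, against -0.15 over all genes, with 77 of 84 positive. It kept its sign in unscaled CPM (0.34, against -0.45 over all genes) and with quantile normalization (0.19, against 0.02). In unscaled CPM, 19 members had all day 30 libraries above all day 3 libraries, against 3.78% of all genes, and in scaled CPM 2 did (Rps15a and Rpl22l1), against 4% of all genes. Between the 2 high background libraries of each group it was 0.93, and between the single low background libraries it was 0.05.

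Rpl4, a large subunit protein, had the most positive difference between day 30 and day 3. It measured 2710, 1364 and 2484 scaled CPM at day 30 and 1649, 435 and 491 at day 3. The groups overlapped in 1 library on each side, day 30 replicate 2 and day 3 replicate 1. Its difference was 1.57 ± 0.63 (SE; limma adjusted p = 0.609). The replicate number was also used as a block, a pairing inferred from correlations in these same data, as described in the processing. With this block the difference was 1.57 ± 0.34 (SE; limma adjusted p = 0.0162). Rpl4 was the only member called, against 0.389% of all genes called higher in that fit. In unscaled CPM Rpl4 was called as well (1.27 ± 0.34, adjusted p = 0.0244; 0.501% of all genes called higher), and with a term for library background too (adjusted p = 0.0328; 0.371% called higher). Without day 3 replicate 1 Rpl4 (2.18, adjusted p = 0.00929) and Rpl32 were called higher, against 0.456% of all genes. After centring on the family, described below, Rpl4 differed by 0.93 and was not called (adjusted p = 0.186).

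Naive brain was then set against naive blood, to compare cells of the tissue with those in circulation. This comparison coincides with library background: all 3 naive brain libraries are low and all 3 blood libraries high, so tissue and background cannot be told apart within it. In limma 4 of 84 members (4.76%) were called higher and 0 lower, against 6.61% and 0.975% of all genes, so the share of members called was no larger than that of genes at large. For 45 members all naive brain libraries lay above all blood libraries in scaled CPM, against 15.6% of all genes. The median difference was 0.79 in scaled CPM, against -0.37 over all genes, but -0.39 in unscaled CPM, against -1.05 over all genes, and -0.70 with quantile normalization, against -0.14. In unscaled CPM 2 members were called higher and 9 lower (3.1% and 3.89% of all genes). Higher were Rpl37a (1.15) and Rps3 (1.14), and the lowest were Rpl22l1 (-1.79), Rpl5 (-1.61), Rpl35a (-1.50) and Rpl35 (-1.46). With quantile normalization 0 members were called higher and 19 lower, against 0.582% of all genes called lower.

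The 4 called members were Rpl37a, Rps3, Rpl29 and Rpl7l1. Rpl37a, a small zinc-binding large subunit protein, measured 855, 393 and 672 scaled CPM in blood and 2791, 2602 and 4341 in naive brain, and rose by 2.37 ± 0.65 (SE; limma adjusted p = 0.0132). Rps3 measured 474, 352 and 722 in blood and 2300.0, 2424 and 2896 in naive brain, and rose by 2.35 ± 0.67 (adjusted p = 0.0173). Rpl29, a large subunit protein, measured 308, 158 and 288 in blood and 1374, 808 and 1139 in naive brain, and rose by 2.16 ± 0.68 (adjusted p = 0.0347). None of these groups overlapped, and every naive brain value was more than 2 times the highest blood value. Rpl7l1, a paralogue of Rpl7 with a role in ribosome assembly, was far less abundant. It measured 3.79, 38.9 and 23.9 scaled CPM in blood and 105, 96.8 and 309 in naive brain, and rose by 3.13 ± 0.88 (adjusted p = 0.0161). edgeR called Rpl7l1 (5.27% of all genes called), DESeq2 called Rpl37a, Rps3, Rpl7l1 and Rps4l (17%), and a fit with the background term called 0 (0.157%). That term was estimated only within day 3 and day 30, where both kinds of library occur, so this fit cannot tell tissue from background either. In the fit without the term, leaving out naive brain replicate 3 gave no called member (3.44% of all genes). Without naive brain replicate 2, blood replicate 1 or blood replicate 2 it was 1 member (4.05%, 5.21% and 5.29%). Without day 3 replicate 1 or 2, which enter only the estimate of spread, 16 and 10 were called higher (7.31% and 6.93%).

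**Figure D2:**
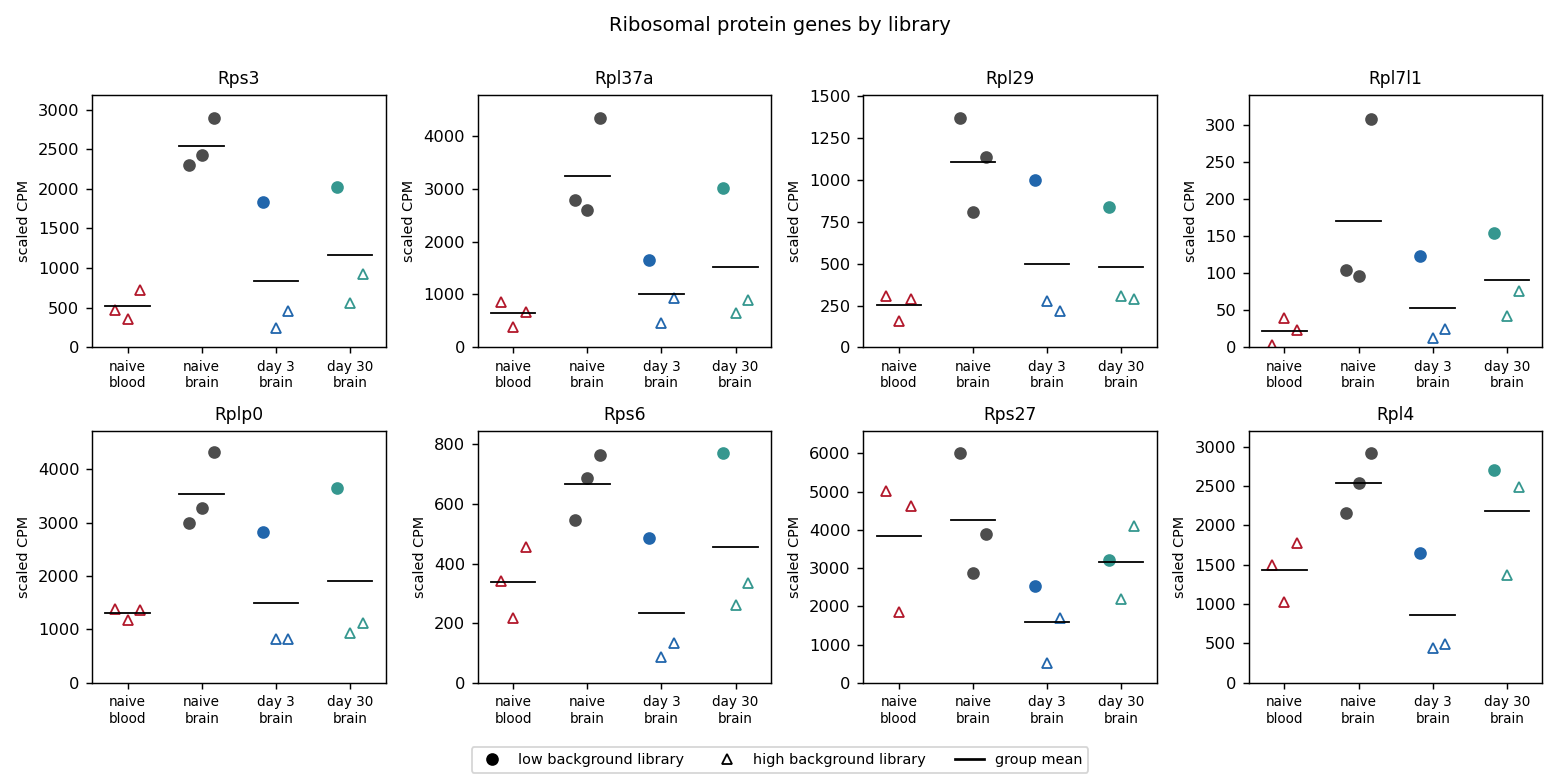
Scaled CPM of 8 ribosomal protein genes in each library, by group (filled circles, low background; open triangles, high background; lines, group means). Every naive brain library lies above every blood library for Rps3, Rpl37a, Rpl29, Rpl7l1, Rplp0, Rps6 and Rpl4. For these genes the low background libraries of day 3 and day 30 also stand above their high background partners. For Rps27 blood and naive brain overlap, and at day 30 the low background library is not the highest.

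Day 3 and day 30 were last set against naive blood, which both comparisons share as reference. No member was called at day 3 in limma, edgeR or DESeq2 (1.18%, 1.28% and 2.55% of all genes), nor at day 30 (0.711%, 0.64% and 1.28%). At an unadjusted p under 0.05 there were 3 at day 3 and 1 at day 30, against 8.29% and 10.3% of all genes. The median difference was -0.37 at day 3 and 0.30 at day 30, against 0.03 and -0.05 over all genes. At day 3 the sign held in unscaled CPM and with quantile normalization (-0.60 in both), with 12 and 13 members called lower, against 0.604% and 0.667% of all genes called lower. Called in both scalings were 11 members. In unscaled CPM the 12 were 8 small subunit and 4 large subunit genes, led by Rps27 (-1.65), Rps19 (-1.49) and Rps15a (-1.48). In unscaled CPM 34 members lay below all blood libraries at day 3, against 5.92% of all genes, and in scaled CPM 2 did, against 4.52% of all genes. At day 30 the sign turned, to -0.23 and -0.40. Within the high background libraries, day 3 replicates 2 and 3 against blood gave -0.89 and day 30 replicates 2 and 3 against blood 0.08.

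**Figure D3:**
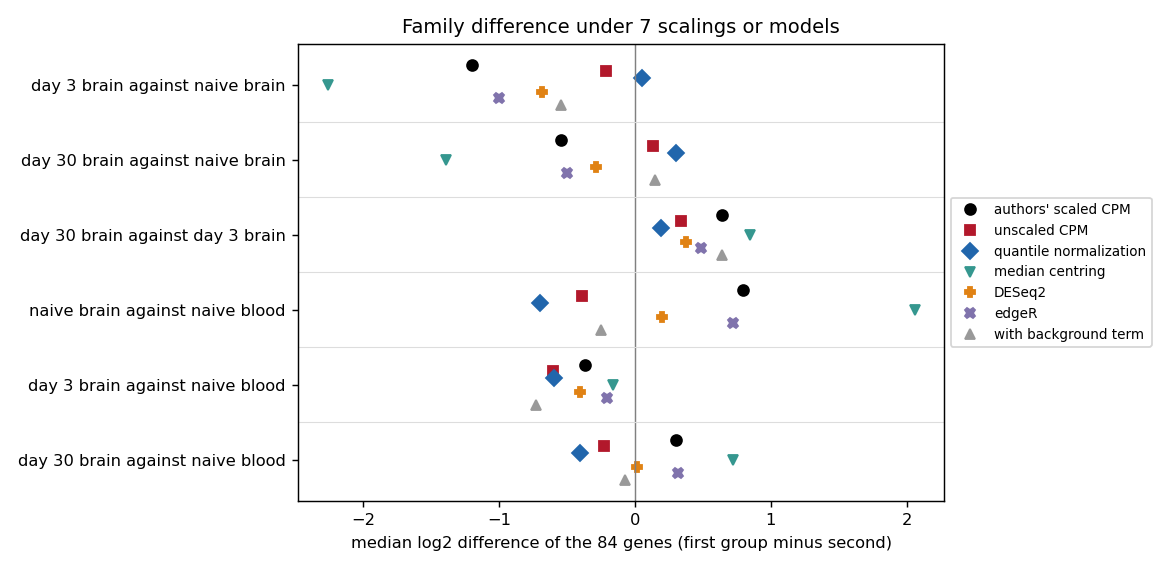
Median log2 difference of the 84 genes in each of 6 comparisons (first group minus second) under 7 scalings or models, with a line at 0. The points of day 30 against day 3 and of day 3 against blood lie on 1 side of 0, while those of the other 4 comparisons lie on both sides.

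To see which members departed from the family, the values of each library were centred on the median of the 84 genes, which removes both scaling and any change of the family as a whole. In naive brain against blood 5 members were called higher and 0 lower, against 3.8% and 1.26% of all genes. Among them were Rpl37a (1.64, adjusted p = 9.62e-05), Rps3 (1.62, adjusted p = 0.000502) and Rpl29 (1.43, adjusted p = 0.0295) in limma, which were also among the 4 members called without centring. With the background term in the fit, which has the limit given above, 0 members were called (0.255% of all genes). The count was 2 without blood replicate 1 or 3 (2.89% and 3.34% of all genes) or naive brain replicate 2 or 3 (2.34% and 2.06%), and 3 without blood replicate 2 (4.57%). It was 8 without naive brain replicate 1 (6.6%), 9 without day 30 replicate 1 (5.24%) and 10 without day 3 replicate 1 or 2 (12.7% and 5.53%).

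Low background libraries of the other groups lay nearer to naive brain than their partners did in the scaled CPM of these 3 genes. Rps3 stood at 1837 scaled CPM in day 3 replicate 1, with 241 and 453 in its partners, and Rpl29 at 1000.1, with 276 and 216. Rps3 stood at 2023 in day 30 replicate 1, with 558 and 931 in its partners, and Rpl29 at 842, with 309 and 286. Against the family median of the library, day 30 replicate 1 was the highest of its group for Rpl37a, Rps3 and Rpl29, and day 3 replicate 1 for Rps3 alone of these.

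**Figure D4:**
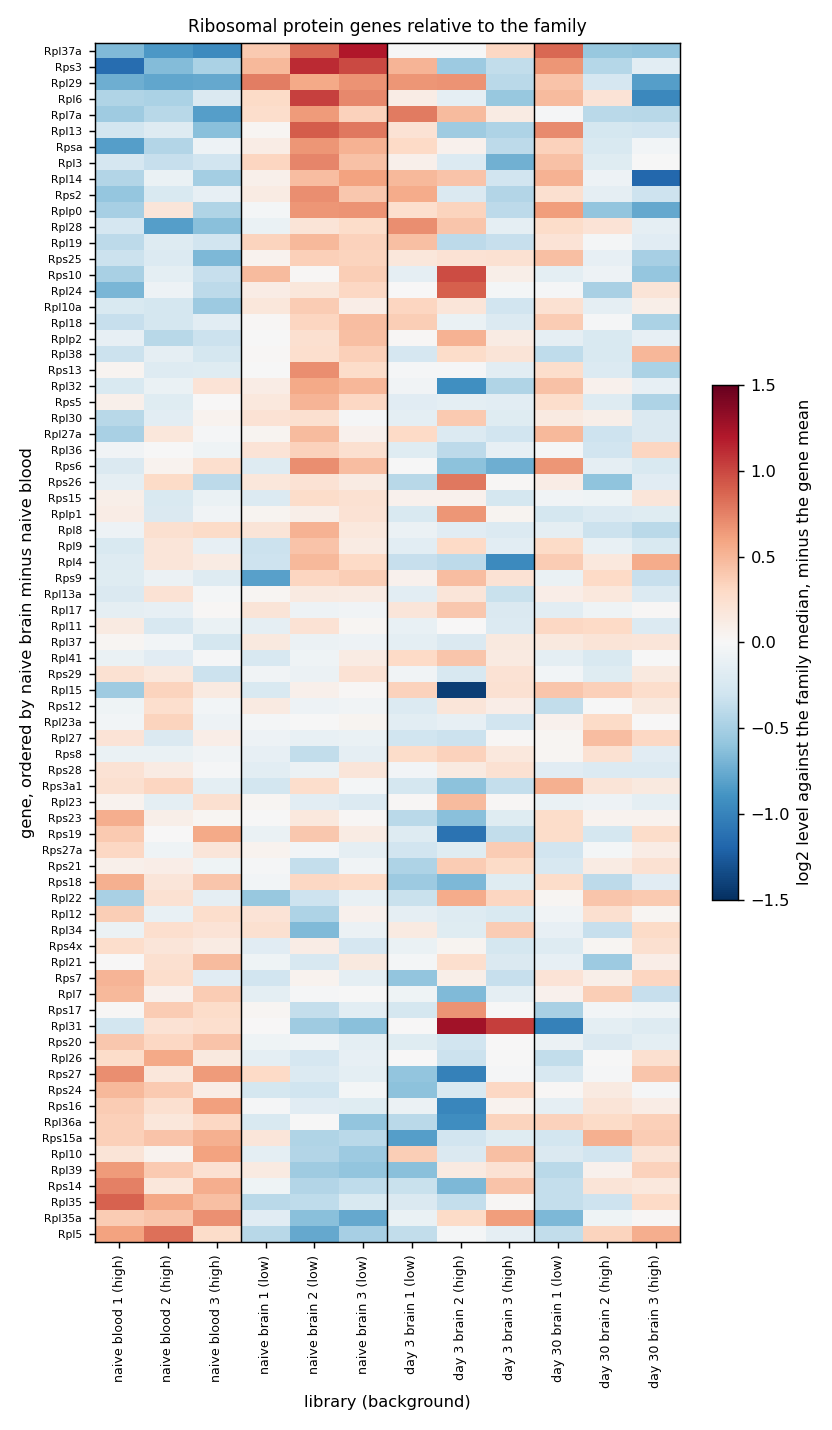
Genes outside the paralogues (rows, ordered by naive brain minus naive blood) in 12 libraries (columns, with background). Colour gives the log2 level against the family median of the library, minus the gene's mean; Rpl37a, Rps3 and Rpl29 head the order with all blood libraries blue and all naive brain libraries red, and Rpl5, Rpl35a and Rpl35 close it with the reverse pattern.

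At the other end of that order stood Rpl5 and Rpl35. Rpl35, whose start window holds the longest pyrimidine run among those printed, measured 1629, 702 and 1163 scaled CPM in blood and 1054, 723 and 1055 in naive brain. After centring it differed by -0.98, and Rpl5 by -1.13, and neither passed the threshold. Centring on the family gave 1 call in day 3 against blood: Rps27, a zinc-binding small subunit protein whose counts nearly equal those of its copy Rps27rt, fell by 1.04 ± 0.27 (SE; limma adjusted p = 0.00574), against 0.201% of all genes called lower. Against the family median of its library, Rps27 stood at 2.44, 1.92 and 2.39 (log2) in blood and at 1.16, 0.74 and 1.72 at day 3, with no overlap. Without blood replicate 1 or 3 or day 3 replicate 2 Rps27 was no longer called, and in naive brain it stood at 2.05, 1.55 and 1.60. In the other 4 comparisons centring called 0 members in limma. The share of all genes called was 0.922% for day 3 and 0.461% for day 30 against naive brain, 0.971% for day 30 against day 3 and 1.34% for day 30 against blood. Without day 3 replicate 1 it called 15 members in day 3 against naive brain, where 46.7% of all genes were called. Without day 30 replicate 1 it called 3 in day 30 against naive brain, against 1.15% of all genes.

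Reads of Rps27l relative to its main gene Rps27 separated the groups after stroke from the naive groups. A ratio of reads between 2 genes is free of library scaling, and these ratios are compared between libraries only, since the genes differ in length. Rps27l reads were 2.94%, 4.66% and 6.26% of Rps27 reads in blood and 3.25%, 4.30% and 6.29% in naive brain. They were 23.9%, 26.8% and 19.7% at day 3, and 7.88%, 12.6% and 7.79% at day 30. Every day 3 library exceeded every day 30 library, and every day 30 library exceeded all 6 naive libraries. The order was the same within background. Among low background libraries day 3 replicate 1 (23.9%) stood above day 30 replicate 1 (7.88%) and the 3 of naive brain, and among high background libraries day 3 replicates 2 and 3 stood above day 30 and blood. As a share of reads on all members, Rps27l did not separate day 30 from blood. That share was 0.223%, 0.465% and 0.381% at day 30 and 0.163%, 0.186% and 0.336% in blood, which overlap. It was 0.142%, 0.114% and 0.179% in naive brain, below every day 30 library. At day 3 it was 0.585%, 0.497% and 0.741%, above every other library.

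The reads behind the ratio of Rps27l to Rps27 were ample, with 157 to 2470 reads on Rps27l and 1140 to 39238 on Rps27 in a library. Rps27l measured 606, 139 and 337 scaled CPM at day 3 and 195, 123 and 245 in naive brain, which overlap, while Rps27 measured 2536, 519 and 1706 against 6005, 2863 and 3897, which do not. Against the family median, Rps27l stood at -0.90, -1.16 and -0.61 (log2) at day 3 and at -2.89, -2.98 and -2.39 in naive brain, with no overlap. That centred difference was 1.86 ± 0.53 with a limma adjusted p of 0.0532, so Rps27l was not called. With 1 library left out it ranged from 1.72 to 2.05 and its adjusted p from 0.0132 to 0.371. It was under the threshold without day 3 replicate 1, day 30 replicate 1 or blood replicate 2. With the background term it was 1.60 (adjusted p = 0.658). The ratio itself was not tested, and its values are given as a description. The T cell marker share was lowest at day 3 and the monocyte share reached its highest value there, and the part of either in the ratio was not tested.

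**Figure D5:**
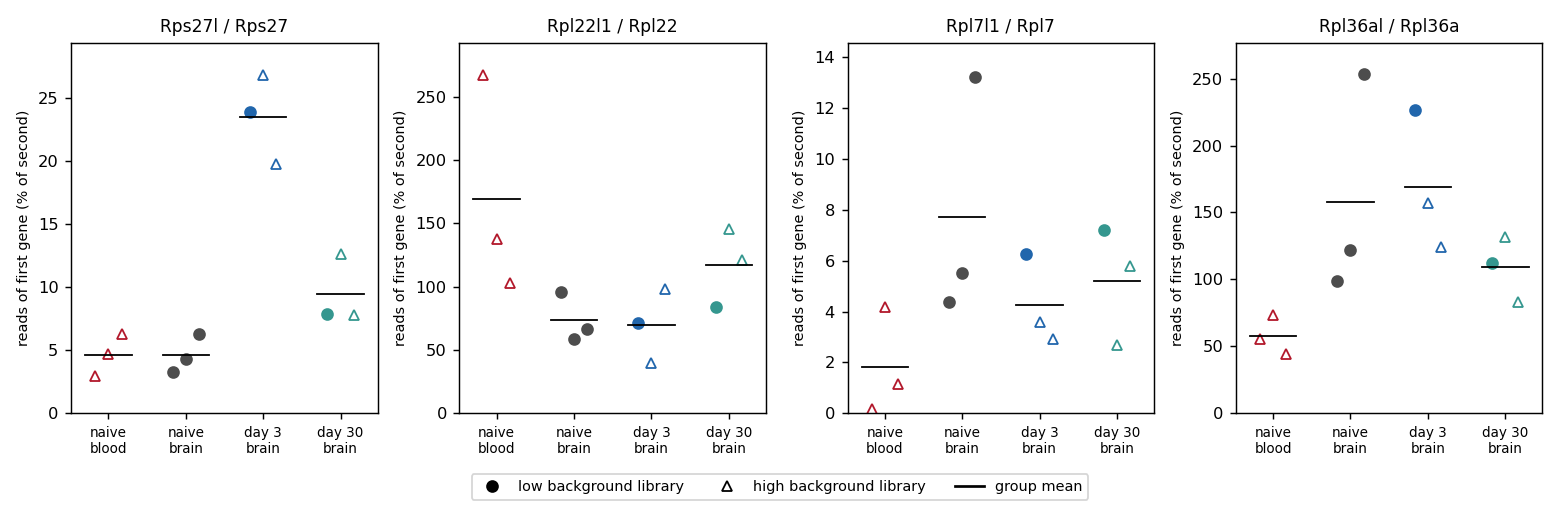
Reads of a paralogue as a percentage of reads of its main gene in each library, for Rps27l, Rpl22l1, Rpl7l1 and Rpl36al (filled circles, low background; open triangles, high background; lines, group means). The 3 day 3 libraries of Rps27l stand at 19.7% to 26.8%, above all others, whereas the groups overlap more in the other panels.

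Rpl22l1, whose mRNA the Rpl22 protein can bind and repress, gave another pattern. Its reads were 267%, 138% and 103% of Rpl22 reads in blood. Naive brain gave 95.4%, 58.9% and 66.7%. The day 3 libraries gave 71.1%, 39.3% and 97.8%, and those of day 30 gave 84.1%, 146% and 121%. Blood lay above naive brain and day 3 without overlap. Rpl22l1 itself measured 369, 493 and 553 scaled CPM at day 30 and 245, 68.7 and 240 at day 3, again without overlap, but the difference of 1.54 ± 0.68 had a limma adjusted p of 0.748. Rpl36al reads were 44.1% to 73.6% of Rpl36a reads in blood and 83.0% to 253% in the 9 brain libraries, so blood lay below every brain library.

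The other paralogues were scarce. Rpl3l, a form used in muscle, and Rpl10l and Rpl39l, forms used in the testis, did not exceed 13.7, 5.49 and 4.97 scaled CPM in any library. Rps4l, annotated in GENCODE as a transcribed processed pseudogene, ranged from 0 to 86.9 scaled CPM. These 4 genes were the members without reads in every library, and 80 members had reads in all 12. Rpl3l had 0 to 98 reads in a library, Rpl10l 0 to 10 and Rpl39l 0 to 20, where a count of 0 allows up to 3 reads, or 0.298 to 1.65 scaled CPM. The libraries of a group differed widely in these genes, and no direction is drawn from them.

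Rplp0, the stalk protein often used as a reference gene, measured 1374, 1168 and 1356 scaled CPM in blood and 2995, 3270 and 4319 in naive brain. After stroke it measured 2827, 822 and 824 (day 3) and 3650, 926 and 1125 (day 30). Its 5 highest values were those of the 5 low background libraries. Its differences were 1.43 for naive brain against blood and -1.49 for day 3 against naive brain, and neither passed the threshold. Rplp1 and Rplp2, its partners in the stalk, differed by 0.90 and 1.25 and by -1.07 and -1.12 in the same comparisons. Rps19, mutated in Diamond-Blackfan anaemia, differed by 0.55 and -1.81, and Rpl38, known for its part in patterning of the embryo, by 1.18 and -1.24.

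In naive brain against blood several lists of translation genes held members called higher and none lower. The counts were 10 of 38 initiation factors (median 1.22), 3 of 14 elongation and release factors (1.51), 3 of 19 other TOP genes (0.90), 11 of 49 ribosome biogenesis genes (1.42) and 10 of 77 mitochondrial ribosomal proteins (1.63), against 6.61% of all genes. Among them were Eif5a, which helps the ribosome through proline runs (4.30 ± 0.75), Eef1d, an exchange factor of elongation (3.50 ± 0.77), and Rrp9, a protein of the small nucleolar particle U3 (5.87 ± 1.07). Among 23 regulators 4 were called higher, including Myc (3.72 ± 0.85) and Eif4ebp1, the mTOR-controlled inhibitor of initiation (3.85 ± 1.09). In unscaled CPM, where the median of the ribosomal protein genes was -0.39, the medians of initiation factors (0.01), elongation factors (0.31), ribosome biogenesis genes (0.25) and mitochondrial ribosomal proteins (0.46) were above 0 and that of other TOP genes was -0.31. Fau, a ribosomal protein made as a fusion with a ubiquitin-like protein and outside the symbol rule, differed by 1.51 without passing the threshold.

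Reads of some members cannot be assigned to 1 gene. Rpl26 (chr11:68901583-68906989) had the same count in every library as Gm15772, annotated as a processed pseudogene on chromosome 5. Rpl30 and Gm12191, Rpl34 and Rpl34-ps1, and Rps27 (chr3:90212522-90213651) and Rps27rt had counts that matched to between 99.5% and 100% in every library. For these 4 members the reads may belong to either copy, and the Rps27l ratio is taken to the reads listed for Rps27. In the GENCODE annotation vM21 of the mm10 build, 49 of the 84 members overlap another gene, often a small nucleolar RNA in an intron.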

How the data were processed

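Sorted CD8 T cells were lysed and their RNA amplified with a SMART-Seq v4 kit, per the labels' protocols. FastQC 0.11.2, STAR 2.5.3a, featureCounts of Subread, edgeR and the mm10 build are named in the submitters' processing notes. For annotation, strand and reads with several matches, nothing is given in the sources used here. A single table of 23937 genes was deposited. The authors call its signal normalized CPM, and its column totals are those of CPM on a scaled library size. In each column, values were whole multiples of the value of a single read (100% whole within 1e-06 reads), so whole reads were recovered. The plan took the values for plain CPM, and the scaled signal was tested the same way. The kit adds no molecular identifiers, so intervals and floors cover counting error only.

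Values were tested as log2(CPM + 1), which understates changes of low genes, with limma 3.58.1 in R 4.3.3 (empirical Bayes with trend, all 12 libraries, two-sided). Each of 6 comparisons was run on the 22352 genes that reach 1 CPM in 3 or more libraries, with Benjamini-Hochberg adjustment over all of them and a threshold of 0.05. The scripts were tested on simulated data. Alternatives were pseudocounts, filters, scalings, edgeR 4.0.16 and DESeq2 1.42.0 on the recovered reads, library weights, the 2 groups alone, a replicate block, a background term, centring on the members, and leaving out each library. The background split was made at the widest gap between libraries in reads on receptor genes.

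The members and all gene lists were chosen with earlier results of these data known. Named members were those past the threshold, a set chosen by role, the paralogue pairs and, with none called, those with the most positive and most negative differences. Rpl31, Rpl35, Rpl35a and Rps15a, the genes led by another scaling and the printed sequences were chosen after their values were seen. Replicate numbers are given by the labels. Between day 3 and day 30, same-numbered libraries deviated together from their group means (correlations across genes of 0.530, 0.284 and 0.165 for numbers 1 to 3), and the numbers were taken to pair them. Day 30 replicate 3 correlated best with day 3 replicate 2, and pairing cannot be told apart from library background. No other comparison was paired by its numbers. Some genes are not reported here by name, and the counts include them.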

Additional observations from a re-analysis of the deposited data

How the results depend on the processing

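Depth and scaling limit these results. The 7 high background libraries hold at most 2141262 reads, and the sign of the family's median changed with the scaling in 4 of 6 comparisons, all but day 30 against day 3 and day 3 against blood. The cause of the changes below was not tested.

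Leaving out 1 library in turn, the number of members called ranged from 0 to 34 in day 3 against naive brain, 0 to 2 in day 30 against day 3 and 0 to 16 in naive brain against blood, and was 0 throughout in the other 3 comparisons. After centring on the family the number ranged from 0 to 15 (day 3 against naive brain), 0 to 3 (day 30 against naive brain), 0 to 1 (day 30 against day 3), 2 to 10 (naive brain against blood) and 0 to 2 (day 3 against blood), and was 0 throughout for day 30 against blood. For the centred ranges of day 30 against day 3 and day 3 against blood no share of all genes is given, and nothing is drawn from them about the members. The median difference of day 3 against blood ranged from -0.89 to 0.020, reaching 0.020 without day 3 replicate 2. The medians of the other 5 comparisons kept their sign: -1.64 to -0.85 for day 3 and -0.71 to -0.33 for day 30 against naive brain, 0.18 to 1.13 for day 30 against day 3, and 0.52 to 0.93 and 0.02 to 0.49 for naive brain and day 30 against blood.

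In day 3 against naive brain, library weights gave 39 calls, and the median was -0.22 in unscaled CPM, -2.26 with median centring, 0.055 with quantile normalization and -0.24 in low background libraries alone. In day 30 against naive brain the median was 0.13 in unscaled CPM, -1.39 with median centring, 0.30 with quantile normalization, 0.14 with the background term and -0.13 in low background libraries alone. In day 30 against day 3, unscaled CPM, the replicate block and the background term gave 1 call each, Rpl4 in all 3 cases.

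In naive brain against blood, calls numbered 11 in unscaled CPM (6.99% of all genes), 12 with median centring (12.9%), 19 with quantile normalization (3.15%), 1 with edgeR (5.27%), 18 with the 2 groups alone (5.62%), 17 with library weights (18.7%) and 0 with the background term (0.157%), also 0 with that term after centring on the family. The median was -0.39 in unscaled CPM, 2.06 with median centring, -0.70 with quantile normalization, 0.20 with DESeq2 and -0.25 with the background term. Called lower against a positive main value were 13 of the 19 with quantile normalization, among them Rps19 (-1.31), Rps4x (-1.31), Rps27 (-1.53), Rpl7 (-1.33) and Rpl10 (-1.47), and 3 of the 11 in unscaled CPM, Rps27 (-1.003), Rpl10 (-1.15) and Rps15a (-1.14). In day 3 against blood, calls numbered 12 in unscaled CPM, 13 with quantile normalization, 1 after centring and 2 with the background term (0.984% of all genes), or 3 with that term after centring (1.84%). In day 30 against blood, quantile normalization gave 1 call (0.801% of all genes), and the median was -0.23 in unscaled CPM, -0.40 with quantile normalization and -0.069 with the background term.

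The replicate block, which was taken to pair day 30 with day 3, changed no other call in that comparison. In naive brain against blood, where the numbers did not pair the libraries, it called 3 members in either direction, all of them higher. Of all genes 8.44% were called in either direction. Centring on the members fixes their median, so no median is given for it. Adding pseudogenes or the 4 ribosomal proteins outside the symbol rule, or leaving receptor genes out of the total, moved the share of reads by less than the spread between replicates.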
